A study of Mus musculus with 4 samples.

Results

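Dubr, a long noncoding RNA gene of mouse chromosome 16, was read by 1 transcript cluster of the Affymetrix Mouse Gene 2.0 ST array, and no cluster shared its name with another gene. It is 1 of 22180 genes that could be named on the array. The gene was selected on its measured values, because its level was higher on both Tbx1 knockout arrays than on the matching wild-type arrays. Those differences are therefore descriptions and carry no test. The series holds 1 array of Tbx1KO head and 1 of Wild-type head at embryonic day 12.5, and 1 array of Tbx1KO palatal shelves and 1 of Wild-type palatal shelves at embryonic day 13.5. All embryos were of a mixed C57BL/6J x FVB/N background. The Tbx1 allele, the sex of the embryos and whether several embryos were pooled are not stated in the labels. With 1 array per group there was no replicate of a genotype within a tissue.

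Dubr is short for Dppa2 upstream binding RNA, and an older name, Dum, refers to muscle. In mouse myoblasts the gene is known as a target of MyoD, the factor that commits cells to skeletal muscle. There its RNA is reported to bring DNA methyltransferases to the nearby gene Dppa2, to silence that gene and to promote the formation of myotubes. Tbx1 is a T-box transcription factor needed for the pharyngeal apparatus and for the muscles that form in the head from it. The palatal shelves are outgrowths of the upper jaw that meet and fuse to make the secondary palate.

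The RefSeq window around the start of Dubr is shown because it is the regulatory sequence nearest to the RNA that was measured. It lies on the minus strand of GRCm38.p6 at chr16:50732724-50733023 and holds 250 bases before the start and 50 bases after it. The capitals mark the single match among the motifs searched, ACGTG, the core of the site bound by hypoxia-inducible factors.

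Dubr window: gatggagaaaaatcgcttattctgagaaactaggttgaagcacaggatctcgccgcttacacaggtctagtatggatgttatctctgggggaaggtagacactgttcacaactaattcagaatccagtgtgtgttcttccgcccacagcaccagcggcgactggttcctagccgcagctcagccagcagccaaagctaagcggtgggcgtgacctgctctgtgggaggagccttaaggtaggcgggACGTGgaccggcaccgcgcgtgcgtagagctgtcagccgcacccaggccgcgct

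The match covers the last 4 bases before the start and the first base after it. ACGTG or its complement CACGT was present in 19.7% of 32544 such windows of all genes. The E-box CANNTG, the general site of MyoD and related factors, had 0 matches in the Dubr window on either strand, and 72.3% of windows held one. CAGCTG, an E-box preferred by myogenic factors and a special case of CANNTG, had 0 matches, with 16.4% of windows holding one. The T-box core GGTGTGA or TCACACC also had 0 matches, and 3.95% of windows held it. The window had 19 CpG dinucleotides and a GC content of 57.3%, where the median window had 7 CpG dinucleotides and 53% GC. These matches describe letters in 1 window and were not tested against expression.

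Dubr had its highest level in the Tbx1KO palatal shelves and its lowest in the Wild-type head. Levels are log2 expression, so a difference of 1 is a 2-fold change. In the head, Dubr was at 7.54 on the Tbx1KO array and at 6.43 on the Wild-type array. In the palatal shelves it was at 7.83 on the Tbx1KO array and at 6.99 on the Wild-type array. Both knockout arrays therefore lay above both wild-type arrays, as they did for 7.47% of the 10814 genes that entered both pairs. A gene entered a pair if either array of the pair was at or above 6.16, the median value of the named genes. The Wild-type head level of Dubr lay 0.27 above this limit, where RMA compresses folds.

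**Figure D1:**
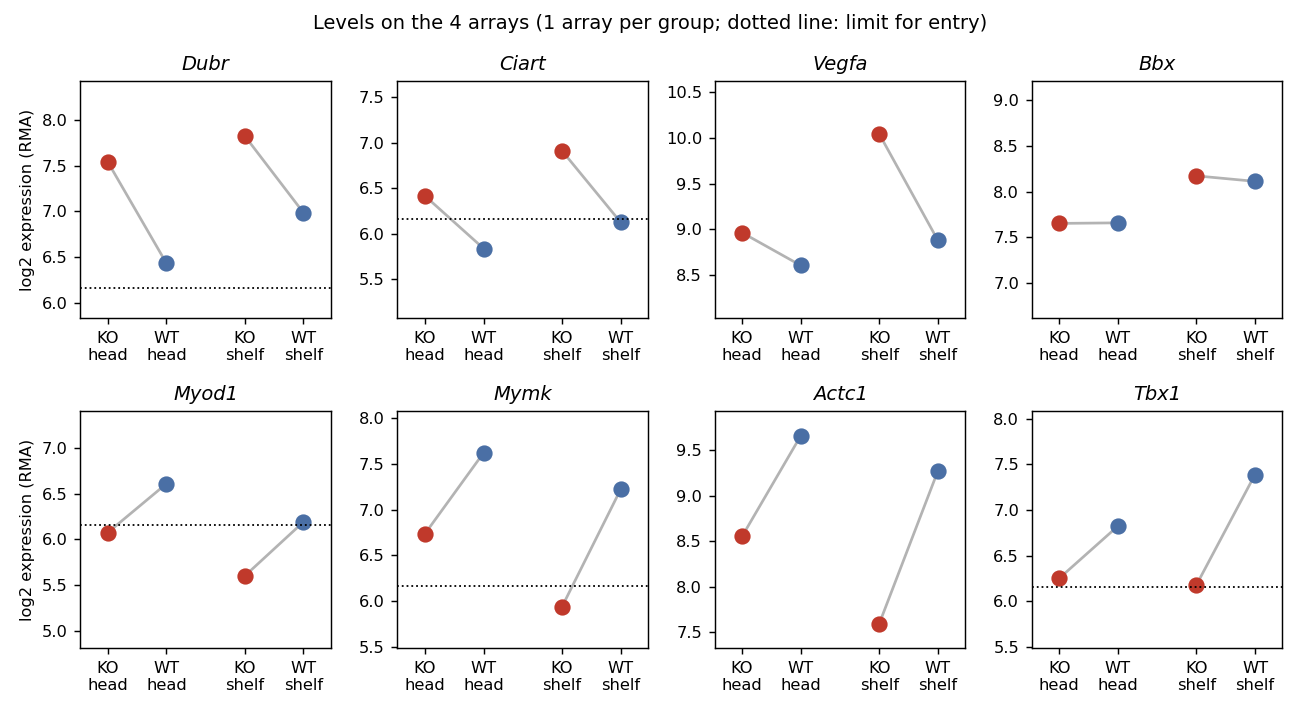
Log2 expression (y axis, 1 scale per panel with a common span) on each array (x axis, KO is Tbx1KO and WT is Wild-type) for Dubr and 7 other genes, with 1 point per array and grey lines joining the arrays of a pair. Dubr, Ciart and Vegfa are higher on the KO array of each pair, Bbx is level within each pair, and Myod1, Mymk, Actc1 and Tbx1 are lower on the KO arrays.

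The knockout minus wild-type difference of Dubr was 1.11 on the log2 scale in the head, which is 2.16-fold. In the palatal shelves it was 0.84, or 1.79-fold. The head difference exceeded that of the shelves by 0.27, and with 1 array per group the contrast between the tissues could not be tested. Genes read by 2 clusters that reached the limit for entry gave a scale for the disagreement between probe sets alone. It was 0.177 (SD per cluster, 254 genes) in the head difference and 0.220 (255 genes) in that of the shelves. Both clusters of a gene were read on the same arrays, so these values hold no variation between embryos, dissections or arrays. Over all genes that entered, the differences had an SD of 0.157 for the head pair and 0.259 for the shelf pair. Dubr has 1 cluster, so its own probe sets could not be set against each other.

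In the head, 12 of 11364 genes were at least 1.5-fold higher on the Tbx1KO array (0.106%), and Dubr ranked 4 by size, behind Eif2s3y, Uty and Kdm5d. In the shelves 219 of 11449 genes were at least 1.5-fold higher (1.91%), and 93 of them had a larger difference than Dubr. By the smaller of its 2 differences, 0.84, it was first among the 10814 genes that entered both pairs and among all 22180 named genes. No other gene that entered was 1.5-fold or more higher on both knockout arrays (1 gene, 0.00925%), and this place is part of how it was chosen. The next gene, Ciart, a repressor of the circadian clock, had a smaller difference of 0.58 and lay just under 1.5-fold in the head. Its Wild-type levels, 5.84 in the head and 6.13 in the shelves, lay below the limit for entry, so it entered through the knockout arrays alone.

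Behind Ciart the order by the smaller difference was Plppr4, a membrane protein of neurons (0.53), Depp1, an autophagy regulator induced by FOXO factors (0.48), and Vwf, the endothelial clotting protein von Willebrand factor (0.45). Then came Kcne3, a potassium channel subunit (0.43), Trp53rka, a kinase (0.41), and Rgs5, a signalling regulator of pericytes (0.41). Chst1, a sulfotransferase (0.39), Sim1, a hypothalamic transcription factor (0.39), and Slc66a1, a lysosomal amino acid transporter (0.36), made up the 10 genes, with 1 predicted gene skipped. Dubr was the 1 noncoding RNA among these 11 genes. Plppr4 also entered through the knockout arrays alone, with Wild-type levels of 6.07 in the head and 5.89 in the shelves. Vwf (6.08) and Sim1 (5.15) lay below the limit on the Wild-type shelf array, and Kcne3 (6.07) on the Wild-type head array.

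**Figure D2:**
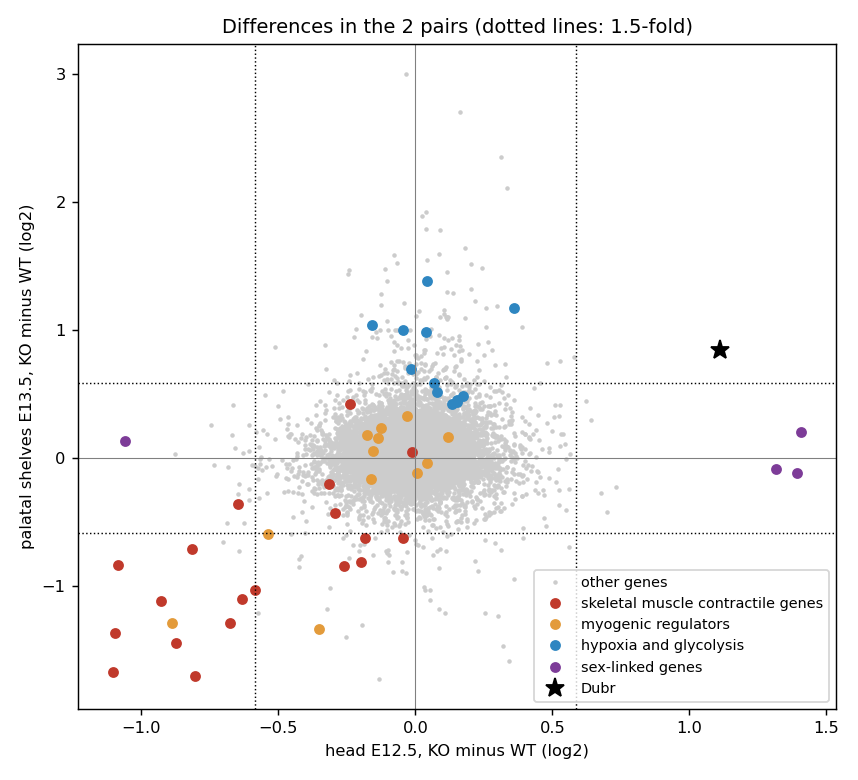
Knockout minus wild-type difference (log2) in the E12.5 head (x axis) against that in the E13.5 palatal shelves (y axis) for the 10814 genes that entered both pairs, with Dubr as a star, 4 gene lists in colour and dotted lines at 1.5-fold. Dubr is the one gene in the upper right field beyond both lines, contractile muscle genes lie at the lower left, hypoxia genes lie high near the centre and sex-linked genes lie at the far left and right near the horizontal axis.

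The other contrast in the series was palatal shelves at embryonic day 13.5 against head at embryonic day 12.5. Its size was not part of the choice of the gene. Its error in the fit below comes partly from the gap between the 2 knockout minus wild-type differences, which the choice did use. The p-value is therefore not independent of that choice. Dubr was higher in the shelves within both genotypes. Its shelves minus head difference was 0.28 between the Tbx1KO arrays and 0.55 between the Wild-type arrays. Fitted over both genotypes it was 0.42 (SE 0.11, 2 arrays per tissue), with an adjusted p of 0.0343 in an additive limma fit of genotype and tissue. The same fit called 13.0% of 11999 genes higher in the shelves and 14.9% lower, so a call of this kind was common. The adjusted p of Dubr ranged from 0.0137 to 0.101 over 9 alternatives and stayed under 0.05 in 6 of them. Tissue and embryonic day changed together and cannot be told apart.

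Marker genes followed the tissue labels. All 12 epithelial genes and 11 of 15 genes of palatal mesenchyme that entered were called higher in the shelves by that fit, and all 18 neuronal genes were called lower. Over all 41345 clusters the head arrays had a Pearson correlation of 0.991 with each other, and the shelf arrays one of 0.988. Tbx1 was at 6.25 on the Tbx1KO array and 6.83 on the Wild-type array of the head, and at 6.18 on the Tbx1KO array and 7.39 on the Wild-type array of the shelves. The labels do not say which part of the gene was deleted, so its level may not check the genotype.

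Several genes of skeletal muscle, the tissue that the name Dum refers to, had lower levels on the knockout arrays. MyoD, encoded by Myod1, was at 6.07 in the Tbx1KO head, against 6.61 in the Wild-type head. In the shelves Myod1 was at 5.60 on the Tbx1KO array and at 6.19 on the Wild-type array. Both Myod1 differences, -0.54 and -0.59, thus had the opposite sign to those of Dubr. Both Tbx1KO levels of Myod1 lay below the limit for entry of 6.16, and its Wild-type shelf level lay just above that limit.

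Myog, which drives myoblast differentiation, had a difference of -0.35 in the head and of -1.34 in the shelves. Mymk, the membrane protein that fuses myoblasts, had -0.89 and -1.29 in the same order. On the Tbx1KO shelf array Myog was at 5.85 and Mymk at 5.93, below the limit for entry. Their levels on the other arrays lay above it. Myf5, a factor of early muscle precursors, had -0.64 in the head, and its shelf levels lay below the limit for entry. Mef2c, a cofactor of the myogenic factors, was at -0.03 in the head and at 0.32 in the shelves. Of the 14 myogenic regulators that entered the head pair, 4 lay above 0 and 2 were at least 1.5-fold lower. Of the 12 that entered the shelves pair, 6 lay above 0 and 3 were at least 1.5-fold lower. Of all genes, 44.5% lay above 0 in the head and 55.2% in the shelves. The median of the myogenic regulators was -0.145 for the head pair and 0.005 for the shelf pair, where all genes had -0.017 and 0.021.

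The contractile genes lay further down. In the head 0 of 23 members lay above 0, the median was -0.50 and 10 were at least 1.5-fold lower, against 0.352% of all genes. In the shelves 2 of 19 lay above 0, the median was -0.84 and 14 were at least 1.5-fold lower, against 1.34% of all genes. Of these 14, Mylpf, Casq2, Neb, Actn2, Tnni1, Atp2a1, Ttn and Myl4 lay below the limit for entry on the Tbx1KO shelf array. They entered that pair through the Wild-type array alone. Actc1, Myh3, Myl1, Tnnt2, Tnnc1 and Tnnc2 lay above the limit on both shelf arrays. Of the 10 in the head, Mylpf and Casq2 entered through the Wild-type array alone. Actc1, an actin of embryonic muscle, was at 8.55 on the Tbx1KO and 9.66 on the Wild-type head array, and at 7.59 and 9.27 on the Tbx1KO and Wild-type shelf arrays. By the larger of the 2 differences, the 5 lowest genes that entered both pairs were Actc1, Mylpf, Myh3, Mymk and Neb, all of muscle. In tissue of mixed cells, fewer muscle cells and less RNA per muscle cell cannot be told apart. The lists were written with earlier results of these data known, so their direction is not independent evidence.

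In the additive limma fit, 0 of 11999 genes were called for genotype in either direction at an adjusted p of 0.05, while 5.23% were under 0.05 before adjustment. Among the contractile genes 0 of 23 passed, with 19 at an unadjusted p under 0.05, all lower. Among the myogenic regulators 0 of 14 passed, with 4 at an unadjusted p under 0.05, all lower. With a mean-variance trend in the limma prior, 7 contractile genes and 1 myogenic regulator passed as lower. With 1 common variance, 11 and 3 did.

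The gene that Dubr is named after was dim on every array. Dppa2, a chromatin factor of pluripotent cells and early germ cells, was at 4.35 in the Tbx1KO head and 4.13 in the Wild-type head. In the shelves Dppa2 was at 4.25 on the Tbx1KO array and 4.37 on the Wild-type array. These 4 levels lay below the limit for entry, and the sign of the difference changed between the pairs (0.22 and -0.12).

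Dppa4, its partner protein, behaved alike, with differences of 0.27 in the head and -0.17 in the shelves and levels from 4.99 to 5.38. Morc1, a germline silencing gene in the same gene neighbourhood as Dppa2, had levels from 3.96 to 4.39. Of 13 genes on the list of Dppa genes and pluripotency factors, Klf4 alone entered, with -0.18 in the head and 0.36 in the shelves. None of 11 measured germline genes that are silenced by DNA methylation reached the limit on any array. A difference in these genes was thus not measurable here.

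The genes of the DNA methylation machinery showed small differences. Dnmt1, which copies methylation after replication, was at 9.65 in the Tbx1KO head and 9.77 in the Wild-type head, and at 9.54 in the Tbx1KO shelves and 9.50 in the Wild-type shelves. Dnmt3a, which sets new methylation, had differences of 0.01 in the head and -0.04 in the shelves. Dnmt3b, the other enzyme for new methylation, had 0.04 and -0.17.

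Uhrf1, which guides Dnmt1, had -0.10 and -0.02. Tet1, Tet2 and Tet3, which oxidise methylated cytosine, had 0.05, -0.07 and -0.08 in the head and 0.37, 0.31 and 0.00 in the shelves. Mbd1, Mbd2, Mbd3 and Mbd4, genes of the methyl-CpG-binding domain family, had -0.06, -0.08, -0.24 and -0.12 in the head. In the shelves these genes had 0.04, -0.21, -0.01 and 0.26. Of the 11 members that entered, 0 were at least 1.5-fold different in either pair. Of all genes, 0.106% were at least 1.5-fold higher and 0.352% lower in the head, and 1.91% and 1.34% in the shelves. With shares this low, 0 of 11 does not set these genes apart. The limma genotype fit called 0 of 11 at an adjusted p of 0.05, as it did 0 of all 11999 genes. Before adjustment 0 of 11 were under 0.05, against 5.23% of all genes. None of the 11 was called with a mean-variance trend, robust eBayes or 1 common variance, which called 11, 0 and 150 of all genes.

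**Figure D3:**
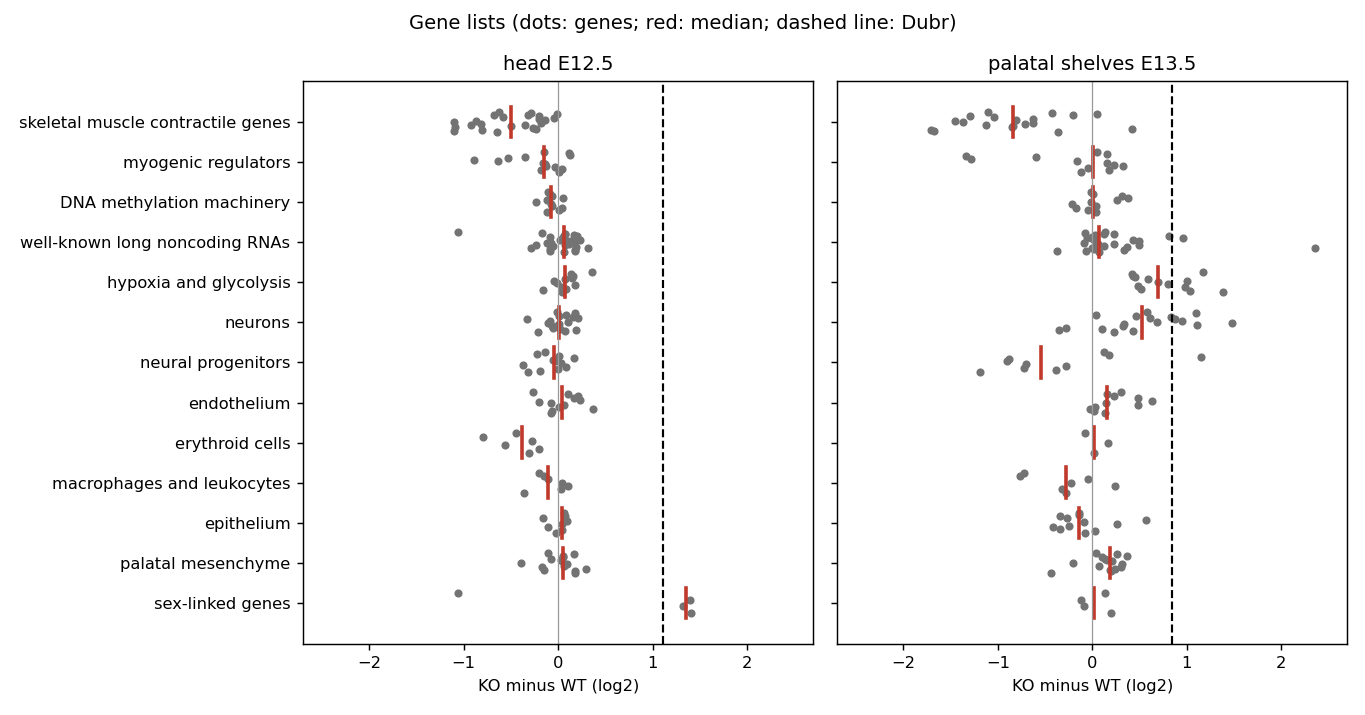
Knockout minus wild-type differences (log2, x axis) of the members of 13 gene lists that entered each pair (rows), with 1 dot per gene, a red bar at the list median and a dashed line at the value of Dubr, for the E12.5 head and the E13.5 palatal shelves. In the head the dots right of the dashed line are 3 sex-linked genes, and in the shelves they belong to the hypoxia, neuron, neural progenitor and noncoding RNA lists.

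Few genes beside Dubr on chromosome 16 were bright enough to enter, and those that did had smaller differences than Dubr. Ccdc54, the nearest measured gene on the side of Dppa2, was dim, with levels from 4.17 to 4.39 and differences of 0.22 in the head and 0.14 in the shelves. Bbx, a transcription factor gene with an HMG box, was at 7.65 in the Tbx1KO head and 7.66 in the Wild-type head. In the shelves Bbx was at 8.17 on the Tbx1KO array and 8.11 on the Wild-type array. Its level was therefore close to equal within each pair.

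On the other side the nearest measured gene was Cblb, a ubiquitin ligase of immune signalling, with differences of -0.06 in the head and 0.09 in the shelves. Alcam, a cell adhesion molecule, had 0.21 and 0.12. Bbx, Cblb and Alcam were the 3 of the 10 nearest measured genes that entered, and 0 of them were at least 1.5-fold different in either pair. Of all genes, 0.106% were at least 1.5-fold higher and 0.352% lower in the head, and 1.91% and 1.34% in the shelves. With shares this low, 0 of 3 does not set these neighbours apart. The other 7 stayed below the limit. Mir6363, a microRNA gene that RefSeq places inside Dubr, has no cluster of its own in the array annotation.

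Tbx1 lies on chromosome 16 as well, with 289 measured genes between it and Dubr. Of the 352 genes of this chromosome that entered the head pair, 1 was at least 1.5-fold higher, Dubr itself, and 1 was at least 1.5-fold lower, where all genes had 0.106% higher and 0.352% lower. Among the 138 that lie between Tbx1 and Dubr and entered the head pair, 0 were at least 1.5-fold different. In the shelves 3 of 365 genes of the chromosome were at least 1.5-fold higher, Dubr among them, and 10 were lower, which is 0.822% and 2.74%. Between Tbx1 and Dubr 2 of 143 were higher and 6 lower, or 1.40% and 4.20%, where all genes had 1.91% higher and 1.34% lower. The highest shelf difference on the chromosome was that of Sst, the somatostatin gene, at 1.32, and the lowest was that of Olfr15, an odorant receptor gene, at -1.69; both were named after their values were seen. These positions were looked at after the values of Dubr were known. The labels do not say from which parental strain the DNA around Tbx1 came, and its part in the result was not tested.

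**Figure D4:**
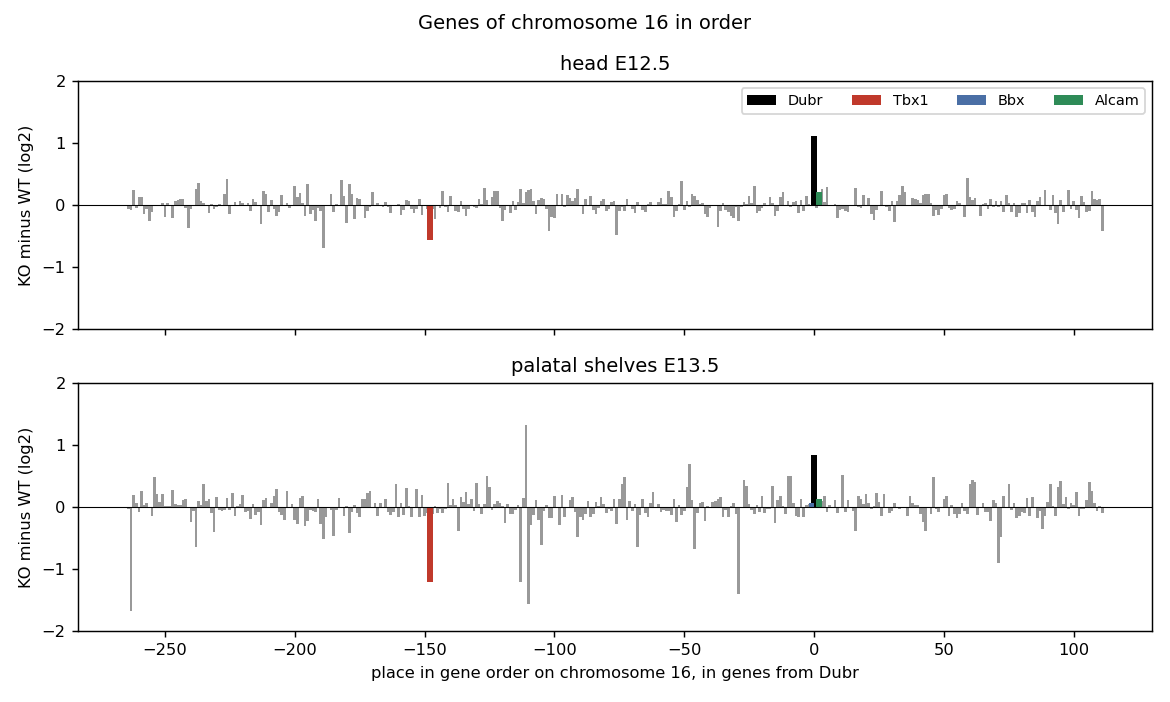
Knockout minus wild-type difference (log2, y axis) of the 376 genes of chromosome 16 that entered either pair, drawn as bars in gene order and counted from Dubr at 0 (x axis), for the E12.5 head and the E13.5 palatal shelves. Dubr has the tallest bar in the head, its neighbours Bbx and Alcam lie near 0, and Tbx1 lies 148 places to the left with negative bars.

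Among long noncoding RNAs, Dubr had the largest difference in the head. Of the 258 genes that RefSeq classes as lncRNA and that entered the head pair, 2 were at least 1.5-fold higher on the Tbx1KO array, Dubr and the predicted gene Gm10400 (0.70), which is 0.775% against 0.106% of all genes. Gm10400 had a difference of -0.42 in the shelves. In the shelves 12 of 248 such genes were at least 1.5-fold higher, or 4.84% against 1.91% of all genes, and Dubr ranked 5 among them by size. The median lncRNA difference was 0.054 for the head pair and 0.039 for the shelf pair, where all genes had -0.017 and 0.021. In the head 161 of 258 lncRNA genes lay above 0 (62.4%, against 44.5% of all genes). In the shelves 147 of 248 did (59.3%, against 55.2%). The direction of Dubr was thus shared by more than the usual share of its class, above all in the head.

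The lncRNA genes that followed Dubr in the order of the smaller difference, among those at least 1.5-fold higher in a pair, differed mainly in the shelves. Sfta3-ps, transcribed beside the lung and forebrain factor gene Nkx2-1, had 0.33 in the head and 2.11 in the shelves. Ipw, an imprinted RNA of the Prader-Willi region, had 0.31 and 2.35. Snhg14, the host transcript of the same region, had 0.20 and 0.81. On the Wild-type shelf array Sfta3-ps was at 4.34 and Ipw at 4.55, below the limit, so both entered that pair through the Tbx1KO array alone. Snhg14 was at 6.52 there, above the limit.

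Of 28 well-known noncoding RNAs that entered the head pair, 0 were at least 1.5-fold higher and 1 was lower, Xist (-1.06). Of all genes, 0.106% were higher and 0.352% lower. In this list 18 of 28 lay above 0, against 44.5% of all genes. Of the 27 that entered the shelves pair, 3 were at least 1.5-fold higher, or 11.1% against 1.91% of all genes. In the same pair 0 were lower, against 1.34% of all genes, and 21 lay above 0, against 55.2%. The 3 were Ipw, Snhg14 and Snhg11, a noncoding RNA of neurons, whose shelf difference of 0.96 exceeded that of Dubr. Snhg11, like Ipw, lay below the limit on the Wild-type shelf array, at 5.61. Malat1, an abundant nuclear RNA, had -0.05 in the head and 0.36 in the shelves, and Meg3, an imprinted RNA with roles in muscle and brain, had -0.23 and 0.12. Neat1, the scaffold of paraspeckles, had -0.12 and 0.23. The genotype fit in limma called 0 of the 28, as it did 0 of all 11999 genes. Before adjustment 6 of the 28 were under 0.05, all higher, where 360 of 11999 genes were under 0.05 and higher.

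The profile of Dubr over the 4 arrays was set against that of 11998 genes by the Euclidean distance between log2 levels centred on each gene's mean. A flat profile would lie at a distance of 1.07. Ciart was nearest, at 0.38, with levels of 6.42 in the Tbx1KO head and 5.84 in the Wild-type head, and of 6.91 in the Tbx1KO shelves and 6.13 in the Wild-type shelves. Depp1 followed at 0.45, with 7.37 on the Tbx1KO and 6.89 on the Wild-type head array, and 7.91 on the Tbx1KO and 7.17 on the Wild-type shelf array. Both genes, like Dubr, were highest in the Tbx1KO shelves and lowest in the Wild-type head. They were picked for nearness to its profile on these same arrays, so the shared order is not separate evidence.

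The third was Eif2s3y, a translation factor gene of the Y chromosome, at 0.51. Its differences of 1.41 in the head and 0.20 in the shelves matched Dubr in direction but not in balance. Rgs5 (0.53), the potassium channel subunit gene Kcne4 (0.56) and H2-DMa, which loads peptides onto MHC class II molecules (0.58), came next. The Wild-type levels of Kcne4 (5.67 in the head and 6.11 in the shelves) and H2-DMa (5.69 and 6.08) lay below the limit for entry. Rora, a nuclear receptor of the clock (0.60), Fxyd5, a modulator of the sodium pump (0.62), Vegfa (0.64) and the lactate transporter gene Slc16a3 (0.64) completed the 10 nearest genes, with 1 predicted gene skipped. Vegfa, the main growth factor of blood vessels, had 0.36 in the head and 1.17 in the shelves. With 4 arrays, 104 genes had a Pearson correlation over 0.95 with Dubr, and the 10 highest of these shared 0 genes with the 10 nearest by distance.

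Some groups of genes stood apart beside Dubr in 1 pair more than in the other. In the head the sex-linked genes did so, with Eif2s3y at 1.41, Uty at 1.39, Kdm5d at 1.32 and Xist at -1.06. In the shelves these 4 genes lay between -0.12 and 0.20. Over the 4 arrays Xist had levels from 10.04 to 11.10, Eif2s3y from 7.09 to 8.50 and Uty from 6.91 to 8.44, all above the limit for entry. Kdm5d lay below it in the Wild-type head alone, at 5.90. The erythroid list stood apart in the head too, with a median of -0.38 over 6 genes and 0 of them above 0 against 44.5% of all genes. In the shelves it had a median of 0.022 over 3 genes.

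In the shelves the hypoxia and glycolysis list had a median of 0.69, with 13 of 13 genes above 0 and 8 at least 1.5-fold higher, where 55.2% of all genes lay above 0 and 1.91% were at least 1.5-fold higher. In the head its median was 0.074 over 12 genes, with 0 at least 1.5-fold higher. The neuronal list had a median of 0.52 in the shelves, with 16 of 18 genes above 0 against 55.2% of all genes, and of 0.008 in the head, with 11 of 18 above 0. Its mean level was 9.48 on both head arrays, 7.81 in the Tbx1KO shelves and 7.28 in the Wild-type shelves. A link between this mean and the level of Dubr was not tested.

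Neural progenitor genes had a median of -0.54 in the shelves and -0.04 in the head. Macrophage and leukocyte genes had -0.28 and -0.105, epithelial genes -0.14 and 0.041, endothelial genes 0.15 and 0.038, and palatal mesenchyme genes 0.18 and 0.047, in the shelves and the head. The part of sex, of hypoxia-responsive genes and of the mix of cells in the difference of Dubr was not tested.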

How the data were processed

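RNA of 4 tissue samples was hybridised to Affymetrix Mouse Gene 2.0 ST arrays. The authors deposited log2 expression values per transcript cluster, and the submitters' processing notes name RMA and Affymetrix Expression Console. RMA gives the arrays a common distribution, which removes a shift shared by most genes and compresses the folds of dim genes. Groups follow the sample titles; another label field calls the E13.5 samples heads. Of 41345 clusters, 23521 have 1 gene symbol in the platform annotation, and 23328 of these matched the GRCm38.p6 RefSeq table by identifier. Clusters of 1 gene were averaged to 22180 genes. The number of arrays limits the precision.

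Differences are knockout minus wild type. The additive fit of genotype and tissue used limma 3.58.1 in R 4.3.3 (lmFit, eBayes, Benjamini-Hochberg over 11999 genes, two-sided, 1 residual degree of freedom). That degree of freedom is the gap between the head and shelf differences of a gene. A knockout effect that differs between the tissues therefore counts as error. The p-values do not measure the spread between embryos. They rest partly on a prior of 5.49 degrees of freedom estimated from all genes. For the shelves minus head effect, 11999 genes were simulated with independent normal noise drawn from that prior and no genotype effect. On these data the fit recovered 88% of genes changed by 1 and 100% of those changed by 2 on the log2 scale. The simulated data met the assumptions of the fit by design. No change as small as the fitted one of Dubr was planted, so these shares do not bear on its call.

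Named genes are Dubr, the 10 genes behind it, the 5 lowest in both pairs, the 10 nearest profiles, the chromosomal neighbours, the methylation genes and from every list up to 4 members with the largest difference in a pair; predicted genes, receptors of smell and small RNAs were skipped. Further members and noncoding RNAs were named after their values were seen. The gene, the lists and the rules were chosen with earlier results of these data known. Motifs were searched in RefSeq promoter windows of GRCm38.p6. Alternatives covered normalization, the filter, the fold, the cluster choice and the limma prior.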

Additional observations from a re-analysis of the deposited data

Results flagged for a closer look

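Outside the named genes, 29 clusters that the platform annotation does not list had a smaller difference above that of Dubr in the 2 pairs. They drew attention as signal in rows that no comparison above used. These clusters were dim: the median of their highest level was 5.83, and 1 of the 29 reached the limit for entry in both pairs. None of the clusters above Dubr had 1 or several gene symbols. The annotation used does not say what they measure.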

How the results depend on the processing

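No paired analysis was possible because the labels give no replicate numbers, and leaving out a replicate was not possible with 1 array per group. The differences of Dubr lay between 1.09 and 1.12 in the head and between 0.80 and 0.86 in the shelves under median centring, repeated quantile normalization, cyclic loess and the brightest cluster, and its first place held under these and without a filter on dim genes. Its place under the upper-quartile filter was not run, since Dubr did not reach that limit in the head. The count of genes at least 1.5-fold higher in both knockout arrays was 7 without a filter, where dim genes enter, and 0 with the upper-quartile filter, which leaves out Dubr. At other folds the count was 0 at 2-fold and 25 at a limit below 1.5-fold. The shelves minus head difference of Dubr missed the threshold with each array centred on its median (0.38, limma adjusted p = 0.0545), with quantile normalization again (0.42, limma adjusted p = 0.0528) and without a filter (0.42, limma adjusted p = 0.101, over 22180 genes); the cause was not tested. The genotype fit called 11 genes with a mean-variance trend (1 higher and 10 lower) and 150 with 1 common variance (82 higher and 68 lower). Ranking by Pearson correlation kept 0 of the 10 nearest genes, since it ignores the size of a profile. With 4 arrays and 1 residual degree of freedom, small differences of dim genes could not be resolved.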
